A study of Homo sapiens with 9 samples.

Results

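The genes described here are the cadherins and the non-clustered protocadherins, read with 3 catenins that tie cadherins to the cytoskeleton. They were taken by symbol: CDH or PCDH followed by a number, without the PCDHA, PCDHB and PCDHG clusters, together with CTNNA1, CTNNA2 and CTNND2. CTNND1 belongs to the same rule but has only probe sets shared with TMX2-CTNND1 and is given apart. The rule found 34 genes among 19775 that had a probe set with a single symbol. A gene with several probe sets was read by the brightest one, judged by the mean of its 9 array values.

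Cadherins are adhesion proteins of the cell surface that bind calcium and usually pair with the same cadherin on a neighbouring cell. Classical cadherins of type I and type II hold beta-catenin or plakoglobin and p120-catenin on their cytoplasmic tails, and alpha-catenin connects that complex to actin. Protocadherins have a similar outer part but different tails, and the delta protocadherins are known chiefly from the developing nervous system. Epithelia are held together by E-cadherin, whereas mesenchymal and neural cells use other members, and Ewing sarcoma has features of both latter kinds.

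RNA from TC-71, an Ewing sarcoma cell line, and from 3 lines derived from it was hybridised to Affymetrix HG-U133 Plus 2 arrays. TC-71 gave 3 samples, called biological replicates in the labels, with 1 array each. Each line had been selected by rising doses of an agent against the IGF-1 receptor. For TC/AEW this was the kinase inhibitor NVP-AEW541, raised to 5 µM. For TC/AVE it was the antibody AVE1642, raised to 10 µg/ml, and for TC/CP the antibody figitumumab, with its top dose not given in the sources used here. Selection lasted at least 6 months, all lines were grown in IMDM with fetal bovine serum, and whether a resistant line was a clone or a pool is left unsaid in the labels. Each resistant line had 2 technical replicate arrays, whose mean stood for the line as 1 sample, which left 6 samples. Where a sentence gives 3 values for the lines, they are in the order TC/AEW, TC/AVE, TC/CP. TC-71 kept in culture for the same time was not analysed here, so resistance and time in culture cannot be told apart. By the array file names in the labels, TC-71 sample 2 belonged to the same array set as TC/AEW and TC/AVE, TC-71 sample 3 to that of TC/CP, and TC-71 sample 1 to a set of its own.

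Array medians ran from 5.39 to 5.45 on the log2 scale. Across the 14181 genes tested, genes not being independent replicates, paired arrays of a line correlated at 0.996 to 0.998 and the TC-71 samples at 0.963 to 0.983, so the TC-71 samples lay further apart than technical replicates. The 7 Ewing sarcoma markers with a probe set averaged 10.16 to 10.61 in TC-71 and 10.26, 10.27 and 10.2 in the lines. CD99 stood between 12.8 and 13.0 in all 6 samples, whereas LIPI stood at 7.09, 6.48 and 7.45 in TC-71 and at 5.82, 5.23 and 5.33 in the lines. Of the markers with a probe set, 5 of 8 epithelial, 5 of 7 endothelial and 1 of 5 blood and immune genes passed the filter on low values. Those that did not included the epithelial markers EPCAM and CDH1, the endothelial markers KDR and CDH5 and the leukocyte marker PTPRC. Means of the blood and immune markers ran from 4.55 to 4.75 in TC-71 and were 4.62, 4.60 and 4.57 in the lines. The 8 epithelial markers averaged 4.99 to 5.11 in TC-71 and 5.02, 4.91 and 4.85 in the lines, and the 7 endothelial markers 4.86 to 5.14 and 5.12, 5.11 and 5.05. Within these lists KRT18 stood at 6.82 in TC-71 and 5.88, 5.79 and 5.65 in the lines, and CLDN5 at 6.39 and 6.97, 7.25 and 7.12. The 6 fibroblast markers averaged 6.16 to 6.85 in TC-71 and 7.53, 6.29 and 6.80 in the lines, with members apart in both directions. LUM stood at 5.22 ± 1.51 (SD, n = 3) in TC-71 and 8.36, 3.78 and 5.38 in the lines, COL3A1 at 7.24 ± 0.67 and 8.31, 5.19 and 7.26, DCN at 7.54 ± 0.59 and 8.201, 8.553 and 6.707, and COL1A1 at 7.54 ± 0.27 and 7.87, 7.59 and 9.04. The part of these markers in the cadherin values was not tested.

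Of the 34 genes, 22 passed the filter of a log2 level of 5 on at least 2 arrays and 12 did not. A level under 5 is taken as near background, and background may reach to about 6, since HBB, which these cells are not expected to make, read 5.74 to 6.02 in TC-71. Levels of different probe sets cannot be compared with each other, since each probe set has its own sensitivity. No member passed the threshold in any of the 6 comparisons made, so the values that follow are described and not called changes. Where p-values are given they come from limma, and for a line with its 1 sample they rest on the spread between the TC-71 samples, which the lone sample is assumed to share.

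**Figure D1:**
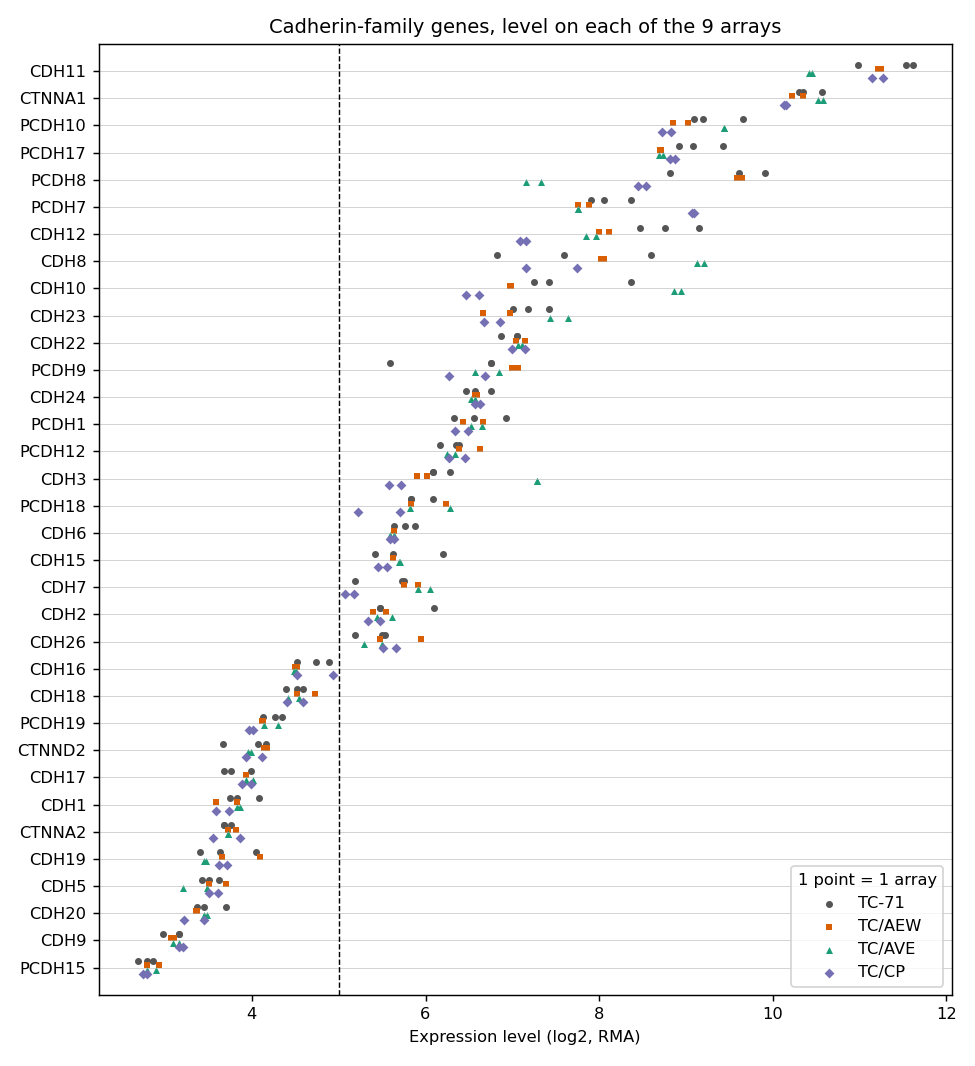
Expression level on the log2 scale (horizontal axis) of the 34 genes on each of the 9 arrays, ordered by mean only for display, with the filter level of 5 as a dashed line. The 12 genes at the bottom stay under the dashed line on every array, at 2.69 to 4.94.

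The RefSeq promoters of 4 members are shown because these genes differed at least 2-fold from TC-71 in a line, with both arrays of that line outside the TC-71 range. The fifth such gene, CDH3, is named only. Each window runs from 250 bases before to 50 after the gene's start in GRCh38.p14, 5′ to 3′ in the direction of the gene. Capitals mark matches on either strand to CCAAT, which NF-Y binds, GGGCGG, which SP factors bind, and TATAAA, the TATA box. Also searched were CACCTG, an E-box that SNAI and ZEB repressors bind, and GGAAGGAA, a tandem of the ETS core that FLI1 binds, and neither had a match in these 4 windows.
CDH12 promoter, chr5:22853295-22853594, minus strand: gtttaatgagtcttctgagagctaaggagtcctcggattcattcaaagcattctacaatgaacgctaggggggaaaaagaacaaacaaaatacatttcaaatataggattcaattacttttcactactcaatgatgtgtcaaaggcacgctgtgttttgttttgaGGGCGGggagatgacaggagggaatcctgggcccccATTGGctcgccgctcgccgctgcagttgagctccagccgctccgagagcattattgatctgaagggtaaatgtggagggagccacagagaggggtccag
CDH8 promoter, chr16:62036389-62036688, minus strand: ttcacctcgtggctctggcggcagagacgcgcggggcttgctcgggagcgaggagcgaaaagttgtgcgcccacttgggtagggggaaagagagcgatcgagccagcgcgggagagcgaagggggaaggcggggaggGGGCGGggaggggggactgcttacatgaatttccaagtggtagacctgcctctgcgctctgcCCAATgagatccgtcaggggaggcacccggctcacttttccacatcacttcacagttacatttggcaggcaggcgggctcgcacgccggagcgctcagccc
CDH10 promoter, chr5:24644929-24645228, minus strand: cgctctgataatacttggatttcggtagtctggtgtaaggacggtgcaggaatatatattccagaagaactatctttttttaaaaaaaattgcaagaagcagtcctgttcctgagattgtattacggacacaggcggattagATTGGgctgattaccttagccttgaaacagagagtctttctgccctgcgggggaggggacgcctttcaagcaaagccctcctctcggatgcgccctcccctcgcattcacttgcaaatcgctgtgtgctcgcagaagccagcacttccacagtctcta
PCDH8 promoter, chr13:52848591-52848890, minus strand: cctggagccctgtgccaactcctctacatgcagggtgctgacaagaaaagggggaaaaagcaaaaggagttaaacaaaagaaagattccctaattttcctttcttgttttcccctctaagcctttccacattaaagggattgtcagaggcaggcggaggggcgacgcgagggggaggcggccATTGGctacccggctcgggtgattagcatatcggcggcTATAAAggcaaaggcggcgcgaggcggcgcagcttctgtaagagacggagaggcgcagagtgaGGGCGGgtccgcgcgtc
The TATA box of PCDH8 begins 30 bases before the start. All 4 windows hold CCAAT or its reverse complement ATTGG. Among the 23 of 34 members with a promoter in the table, 16 held CCAAT, against 35.7% of 27305 promoters of this length. GGGCGG was in 10 of the 23 (44.59% of all), TATAAA in 2 (PCDH8 and CDH9, 11.95% of all), CACCTG in 2 (PCDH1 and PCDH15, 20.6% of all) and GGAAGGAA in 2 (CDH7 and PCDH18, 3.58% of all). These letter matches describe the windows and say nothing about binding in these cells. In the same assembly CDH8 and CDH11 are neighbouring protein-coding genes, as are CDH3 and CDH1, CDH18 and CDH12, and CDH10 and CDH9. The pairs CDH11 and CDH5, and CDH7 and CDH19, are neighbours as well.

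Of those neighbours, CDH1, CDH5, CDH9, CDH18 and CDH19 stayed under 5, near background. CDH1 (E-cadherin), beside CDH3, stood at 4.09, 3.74 and 3.83 in the TC-71 samples and at 3.71, 3.85 and 3.66 in the lines. CDH18, beside CDH12, CDH9, beside CDH10, CDH5, beside CDH11, and CDH19, beside CDH7, were under 5 on every array as well. CDH8 and CDH11 were both above background and stood on opposite sides of TC-71 in TC/AVE.

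Among the type I classical cadherins, CDH3 set TC/AVE apart. CDH3 (P-cadherin), a cadherin of basal epithelia and placenta, stood at 6.09, 6.09 and 6.28 in the TC-71 samples, at 5.90 and 6.01 on the TC/AEW arrays, at 7.28 and 7.29 on the TC/AVE arrays and at 5.72 and 5.57 on the TC/CP arrays. Both TC/AVE arrays lay above all TC-71 samples and both arrays of each other line lay below them. The difference in TC/AVE was 1.13 ± 0.22 (SE, 2.19-fold, adjusted p = 0.399, unadjusted p = 0.0034). In TC/AEW and TC/CP it was -0.19 ± 0.22 and -0.51 ± 0.22. Outside TC/AVE every CDH3 value lay near the background of about 6, so its folds, and the order of TC-71, TC/AEW and TC/CP, rest on levels near background. In bulk RNA, fewer cells expressing a gene and less RNA per cell cannot be told apart.

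The other type I members showed little. CDH2 (N-cadherin), the usual cadherin of neural and mesenchymal cells, stood at 6.10, 5.48 and 5.48 in TC-71 and at 5.47, 5.53 and 5.41 in the lines, within reach of background. Its other probe set stayed under 5. CDH15, the cadherin of muscle precursors, stood at 5.75 ± 0.41 (SD, n = 3) in TC-71 and at 5.63, 5.70 and 5.51 in the lines, overlapping TC-71 in each. CDH4, and CDH13 from outside the classical types, had no single-symbol probe set in the annotation used and were not analysed here.

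Of 13 type II classical cadherins, 8 were tested, and the differences that were at least 2-fold lay in CDH8, CDH10 and CDH12, all best known from the brain. CDH12 was the 1 member of these whose arrays lay below TC-71 in every line. It stood at 8.76, 8.47 and 9.15 in TC-71, at 8.002 and 8.115 on the TC/AEW arrays, at 7.85 and 7.97 on the TC/AVE arrays and at 7.08 and 7.15 on the TC/CP arrays. None of these 6 arrays reached the lowest TC-71 sample. The differences were -0.73 ± 0.32 in TC/AEW, -0.88 ± 0.32 in TC/AVE and -1.67 ± 0.32 in TC/CP (3.19-fold lower, adjusted p = 0.518). For the lines in common the CDH12 difference was -1.10 ± 0.29 (2.14-fold lower, adjusted p = 0.371, unadjusted p = 0.00637), the lowest adjusted p of any member in that comparison. Against the TC-71 sample of the same array set the differences were -0.41, -0.56 and -2.03.

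CDH10 and CDH8 were highest in TC/AVE. CDH10 stood at 7.25, 8.36 and 7.42 in TC-71, at 6.98 and 6.99 in TC/AEW, at 8.86 and 8.95 in TC/AVE and at 6.46 and 6.61 in TC/CP. TC/AVE lay above all TC-71 samples, and TC/AEW and TC/CP below all of them. The difference was 1.23 ± 0.48 in TC/AVE (2.34-fold, adjusted p = 0.696), -1.14 ± 0.48 in TC/CP (2.20-fold lower, adjusted p = 0.998) and -0.69 ± 0.48 in TC/AEW. TC-71 sample 2, of the set that holds TC/AEW and TC/AVE, was the highest TC-71 sample, and against it the differences were 0.54 in TC/AVE and -1.38 in TC/AEW. Without that sample the differences were 1.57 in TC/AVE, -0.35 in TC/AEW and -0.80 in TC/CP, the last then under 2-fold.

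CDH8 varied most between the TC-71 samples among the 22 genes, standing at 6.83, 8.60 and 7.60. It stood at 8.02 and 8.06 in TC/AEW, at 9.13 and 9.21 in TC/AVE and at 7.75 and 7.15 in TC/CP, so that TC/AVE alone lay outside the TC-71 range. The difference in TC/AVE was 1.496 ± 0.68 (2.82-fold, adjusted p = 0.738). Against the TC-71 sample of the same array set it was 0.57 in TC/AVE and -0.56 in TC/AEW. The other 3 probe sets of CDH8 were also higher in TC/AVE, by 0.30 to 0.75. On those at 0.30 and 0.75 the TC/AVE arrays overlapped the TC-71 range. On the one at 0.42, which read 4.84 to 5.50 in TC-71, they lay just above it.

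CDH11 (OB-cadherin), the cadherin of osteoblasts and other mesenchymal cells, stood at 10.98, 11.53 and 11.61 in TC-71 and was lower in TC/AVE, at 10.41 and 10.45. TC/AEW, at 11.21 and 11.25, and TC/CP, at 11.27 and 11.14, lay inside the TC-71 range. The difference in TC/AVE was -0.95 ± 0.32 (1.93-fold lower, adjusted p = 0.633, unadjusted p = 0.0326) and -1.10 within the array set. All 4 CDH11 probe sets were lower in TC/AVE, by values from -1.04 to -0.27. The next brightest put every line below all TC-71 samples, which it read at 10.03, 10.14 and 9.92. Its arrays stood at 9.70 and 9.83 in TC/AEW, 8.96 and 9.01 in TC/AVE, and 9.39 and 9.52 in TC/CP. On the other probe sets TC/AEW and TC/CP lay inside the TC-71 range. On the one that differed by -0.27 in TC/AVE, the TC/AVE arrays lay inside it too. They stood at 8.58 and 8.59, against 7.88, 9.44 and 9.23 in TC-71.

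The remaining type II members tested differed little. CDH7, known from the neural tube and neural crest, stood at 5.56 ± 0.32 (SD, n = 3) in TC-71 and at 5.83, 5.98 and 5.12 in the lines, above all TC-71 arrays in TC/AVE and below them in TC/CP. Without TC-71 sample 1 its difference in TC/AVE was 0.24 in place of 0.42. CDH22 lay above TC-71 in TC/AVE at 7.11 and 7.07 against a highest TC-71 value of 7.05. CDH6, CDH22 and CDH24 had differences between -0.15 and 0.10 in the 3 lines. CDH5 (VE-cadherin of endothelium), CDH9, CDH18, CDH19 and CDH20 were under 5 on every array.

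**Figure D2:**
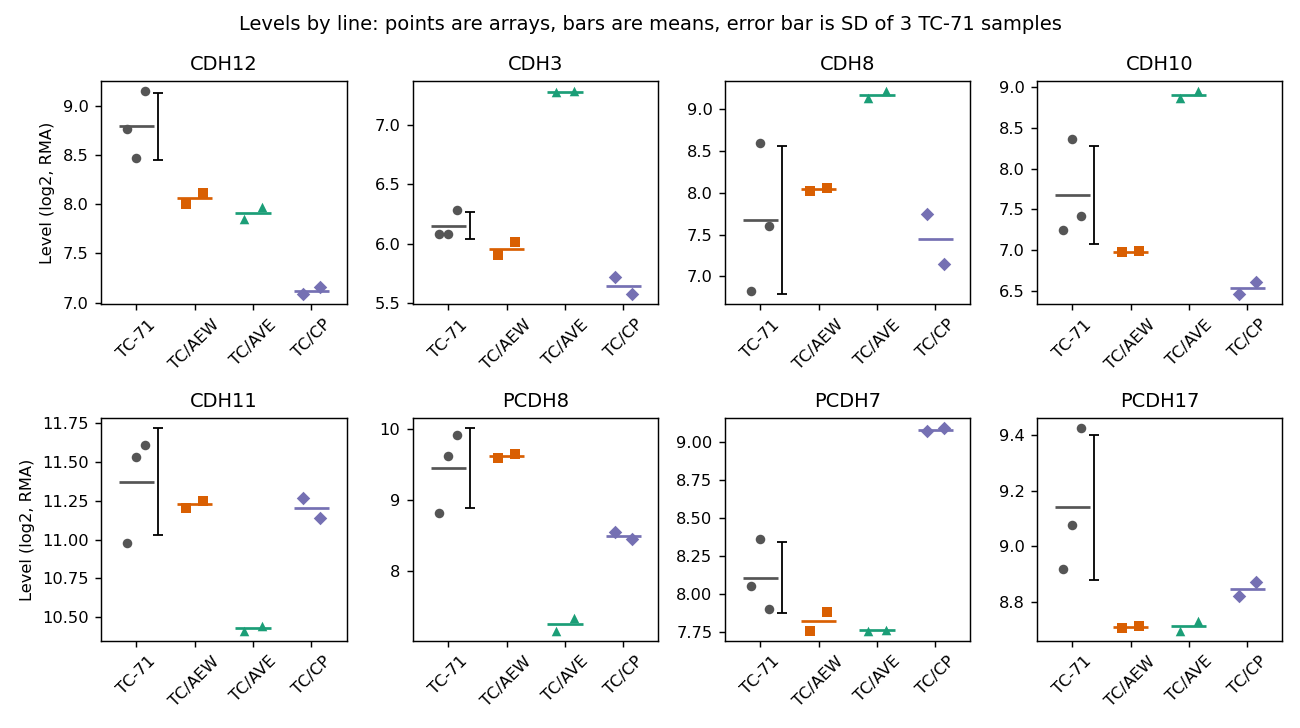
Log2 level of 8 members in TC-71 and the 3 resistant lines, each panel with its own axis. Points are arrays, horizontal bars are means and the error bar is the SD of the 3 TC-71 samples. CDH12 and PCDH17 lie below TC-71 in every line, CDH3, CDH8 and CDH10 are highest in TC/AVE, and PCDH7 is highest in TC/CP.

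Among the delta protocadherins, PCDH8 had the largest difference of the 22 genes between a single line and TC-71. PCDH8, known for its role in paraxial mesoderm and at synapses, stood at 8.81, 9.61 and 9.91 in TC-71, at 9.59 and 9.64 in TC/AEW, at 7.15 and 7.33 in TC/AVE and at 8.54 and 8.45 in TC/CP. The arrays of both antibody-selected lines lay below all TC-71 samples and those of TC/AEW lay inside the range. The difference was -2.20 ± 0.46 in TC/AVE (4.60-fold lower, adjusted p = 0.453, unadjusted p = 0.00492), -0.95 ± 0.46 in TC/CP (1.93-fold lower, adjusted p = 0.998) and 0.17 ± 0.46 in TC/AEW. Against the TC-71 sample of the same set it was -2.37 in TC/AVE and -1.42 in TC/CP. TC/AEW stood 1.74 ± 0.49 above the mean of the antibody-selected lines (3.35-fold, adjusted p = 1.00, unadjusted p = 0.0159). PCDH8 has a single probe set, as have CDH3, CDH10 and CDH12, so no second reading of these genes was at hand.

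PCDH7, an adhesion protein first described in brain and heart, was the 1 member above all TC-71 arrays in TC/CP. It stood at 8.05, 8.36 and 7.90 in TC-71, at 7.75 and 7.88 in TC/AEW, at 7.75 and 7.76 in TC/AVE and at 9.07 and 9.09 in TC/CP. The difference in TC/CP was 0.98 ± 0.26 (1.97-fold, adjusted p = 0.752, unadjusted p = 0.014). The 4 kept probe sets of PCDH7 split. The one used here and one other both differed by 0.98 in TC/CP, while the other two differed by 0.11 and -0.24. In TC/AVE the one at 0.11 differed by 0.59 and the one used here by -0.35. Which PCDH7 transcripts each probe set reads was not tested.

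PCDH17, a protein of developing synapses, was the other member below all TC-71 arrays in every line. It stood at 8.92, 9.08 and 9.43 in TC-71, at 8.71 on both TC/AEW arrays, at 8.69 and 8.73 in TC/AVE and at 8.82 and 8.87 in TC/CP. For the lines in common the difference was -0.38 ± 0.16 (1.31-fold lower, adjusted p = 0.595, unadjusted p = 0.0485). All 3 of its probe sets were lower in each line, the smallest difference being -0.03 in TC/CP. On the probe set with that difference TC/CP lay inside the TC-71 range, TC/AVE overlapped it and TC/AEW lay below it. Without TC-71 sample 3 the TC/AVE and TC/CP differences, -0.43 and -0.29 with it, were -0.28 and -0.15.

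PCDH10, which acts in axon growth and is often silenced in tumours, stood at 9.65, 9.09 and 9.20 in TC-71, at 8.85 and 9.02 in TC/AEW, at 9.44 and 9.43 in TC/AVE and at 8.83 and 8.72 in TC/CP. TC/AEW and TC/CP lay below all TC-71 samples, by -0.38 ± 0.30 and -0.54 ± 0.30, and TC/AVE lay inside the range. Without TC-71 sample 1 the TC/AEW difference was -0.21, and against the TC-71 sample of its array set it was -0.15. Both other kept PCDH10 probe sets, at levels near the background of about 6, put TC/AVE above all TC-71 samples. The differences there were 0.65 and 0.29. On the one at 0.65, TC/AEW and TC/CP overlapped TC-71, and on the one at 0.29 they lay below it. PCDH9, a neural delta protocadherin, stood at 5.59, 6.76 and 6.76 in TC-71 and at 7.03, 6.70 and 6.48 in the lines. Both of its TC/AEW arrays, at 6.99 and 7.06, lay above TC-71, by a difference of 0.66 ± 0.53 that was 0.27 without TC-71 sample 1. PCDH1 and PCDH18 had differences from -0.45 (PCDH18 in TC/CP) to 0.14. PCDH19 was under 5 on every array.

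Among cadherins outside the classical types, CDH23 was highest in TC/AVE. CDH23, which with PCDH15 forms the tip links of hair cells, stood at 7.18, 7.42 and 7.01 in TC-71, at 6.66 and 6.98 in TC/AEW, at 7.43 and 7.64 in TC/AVE and at 6.85 and 6.68 in TC/CP. TC/AVE lay above all TC-71 samples and the other lines below them. The margins were narrow, at 7.43 against 7.42 for the lower TC/AVE array and 6.98 against 7.01 for the higher TC/AEW array. The differences in the lines were -0.39, 0.33 and -0.44 (each ± 0.25). Against the TC-71 sample of the same array set they were -0.60, 0.11 and -0.25. Another CDH23 probe set differed more in TC/AVE, by 1.32 from 5.29 ± 0.20 (SD, n = 3). It differed by 0.29 in TC/AEW and 0.09 in TC/CP. CDH26 stood at 5.41 ± 0.19 (SD, n = 3) in TC-71 and at 5.71, 5.40 and 5.59 in the lines, overlapping TC-71 in each. PCDH12, a protocadherin of endothelium, differed by at most 0.21, and its TC/AEW arrays, at 6.63 and 6.39, lay just above TC-71. CDH16 of kidney, CDH17 of intestine and PCDH15 were under 5 on every array.

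The catenins stood close to TC-71. CTNNA1 (alpha-E-catenin), which links the cadherin complex to actin, stood at 10.30, 10.57 and 10.35 in TC-71, at 10.22 and 10.35 in TC/AEW, at 10.52 and 10.58 in TC/AVE and at 10.13 and 10.15 in TC/CP. Only in TC/CP did both arrays lie outside the TC-71 range, with a difference of -0.26 ± 0.23 (adjusted p = 0.998). Its 5 probe sets ran from -0.95 to 0.01 in TC/CP. CTNND1 (p120-catenin), by the brightest shared probe set, stood at 9.66, 9.19 and 9.26 in TC-71 and at 9.18, 9.33 and 9.07 in the lines, and was not tested. The neural catenins CTNNA2 and CTNND2 were under 5 on every array, CTNNA2 at 3.68, 3.76 and 3.68 in TC-71 and 3.77, 3.73 and 3.71 in the lines, and CTNND2 at 3.67, 4.07 and 4.16 and 4.16, 3.97 and 4.02.

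For each resistance taken singly, the line was compared with TC-71. Limma called 0 of the 22 genes in TC/AEW, 0 in TC/AVE and 0 in TC/CP, and 0% of all genes in each. At an unadjusted p under 0.05 the counts were 0 in TC/AEW (3.53% of all genes), 4 in TC/AVE (CDH3, CDH11, CDH12 and PCDH8, against 7.23%) and 2 in TC/CP (CDH12 and PCDH7, against 4.95%). At least 2-fold apart from TC-71 were 0 members in TC/AEW (2.23% of all genes), 4 in TC/AVE (CDH3, CDH8, CDH10 and PCDH8, against 3.68%) and 2 in TC/CP (CDH10 and CDH12, against 3.19%). By direction, 3 members in TC/AVE were at least 2-fold higher (1.96% of all genes) and 1 lower (1.72%), 0 in TC/CP were higher (2.42%) and 2 lower (0.776%), and in TC/AEW 0 were higher (1.76%) and 0 lower (0.465%). Both arrays lay beyond all TC-71 arrays for 9 members in TC/AEW (29.8% of all genes), 11 in TC/AVE (39.4%) and 11 in TC/CP (38.2%). The 9 members were 40.9% of the 22 and each 11 were 50%, not far above those shares. In TC/CP 10 lay below TC-71, 45.5% of the 22 beside 17% of all genes, and 1 above (21.2%). In TC/AVE 6 lay above (19.6%) and 5 below (19.8%), and in TC/AEW 2 above (15.5%) and 7 below (14.3%). The median difference over the 22 was -0.12, -0.01 and -0.25 in the lines, beside medians over all genes from -0.02 to 0.00.

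**Figure D3:**
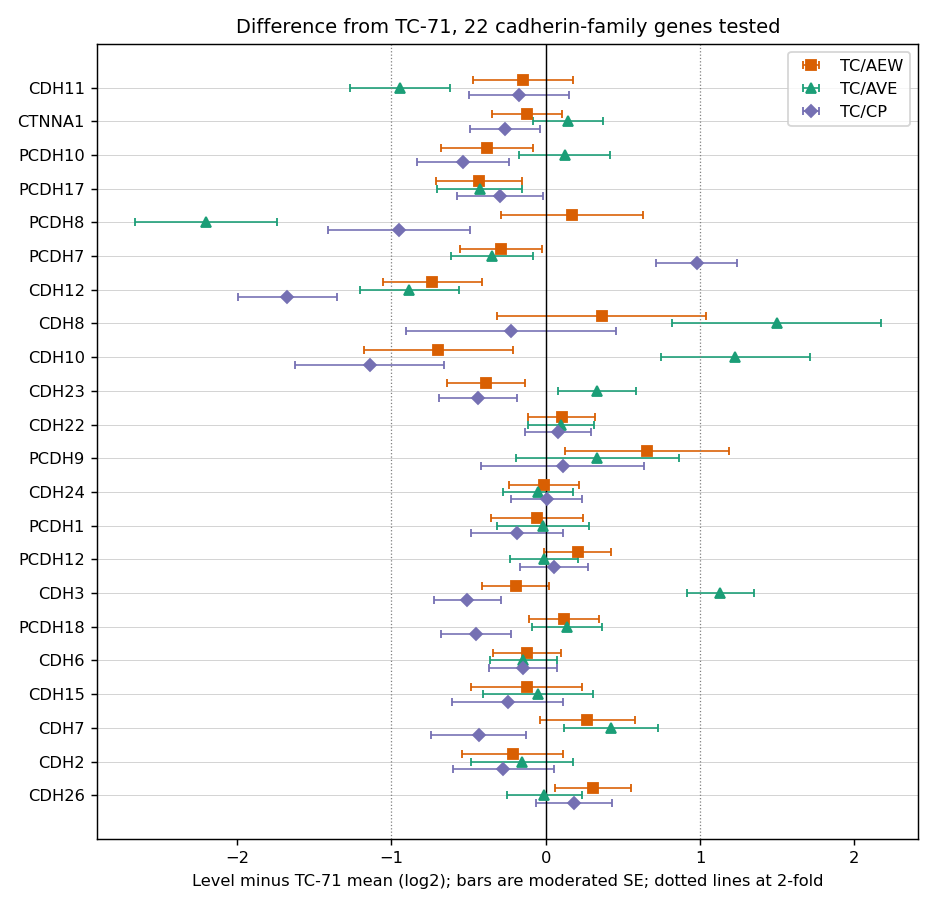
Level minus the TC-71 mean on the log2 scale for the 22 genes tested in each resistant line, with moderated standard errors as bars and dotted lines at 2-fold. TC/AVE lies past a dotted line for CDH3, CDH8, CDH10 and PCDH8, TC/CP for CDH10 and CDH12, and TC/AEW for none.

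The lines were also pooled against TC-71, the comparison of resistance in common that the study's design names. Limma called 0 of the 22 genes (0.0212% of all genes), and 2, CDH12 and PCDH17, were at an unadjusted p under 0.05 (8.38% of all genes). The same 2 genes had every array of all lines below TC-71 (4.32% of all genes), and 0 members had every array above (5.2%). The median over the 22 was -0.08, beside -0.01 over all genes.

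TC/AVE and TC/CP were selected with antibodies against the same receptor, and several members stood on opposite sides of TC-71 in them. CDH3, CDH7, CDH10 and CDH23 were above all TC-71 arrays in TC/AVE and below them in TC/CP, and PCDH7 was the reverse. CDH7 on all arrays and CDH3 outside TC/AVE were near background. For CDH23 the lower TC/AVE array cleared the highest TC-71 sample narrowly, at 7.43 against 7.42. These 5 were 22.7% of the 22, whereas 5.78% of all genes lay on opposite sides. CDH12, PCDH8 and PCDH17 lay below in both lines, and 14.9% of all genes lay on the same side in both. These counts share the TC-71 samples. Set directly against each other, which uses the spread of TC-71 but not its levels, TC/AVE stood above TC/CP by 2.37 ± 0.59 for CDH10 (5.16-fold, adjusted p = 0.582) and by 1.64 ± 0.27 for CDH3 (3.11-fold, adjusted p = 0.43), and below it by -1.33 ± 0.32 for PCDH7 (2.51-fold, adjusted p = 0.573). Limma called 0 of 22 in this comparison (0% of all genes), with 3 at an unadjusted p under 0.05 (5.78% of all genes), and 5 were at least 2-fold apart (CDH3, CDH8, CDH10, PCDH7 and PCDH8, against 4.72%). The median size of the difference was 0.50 over the 22 and 0.21 over all genes. The 22 also varied more between the TC-71 samples, with a median SD of 0.28 against 0.22 over all genes. Their median level was lower, at 6.83 against 7.64. The array set differs between these lines, and each set holds 1 TC-71 sample. Against it the differences in TC/AVE and TC/CP were 1.20 and -0.64 for CDH3, 0.54 and -0.88 for CDH10, and -0.61 and 1.18 for PCDH7, on opposite sides as before. Within 1 set, CDH3, CDH8 and CDH10 were higher and PCDH8 and CDH11 lower in TC/AVE than in TC/AEW by the levels given above. In TC/AEW against both antibody-selected lines limma called 0 of 22 (0% of all genes), with 1, PCDH8, at an unadjusted p under 0.05 (1.83%).

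**Figure D4:**
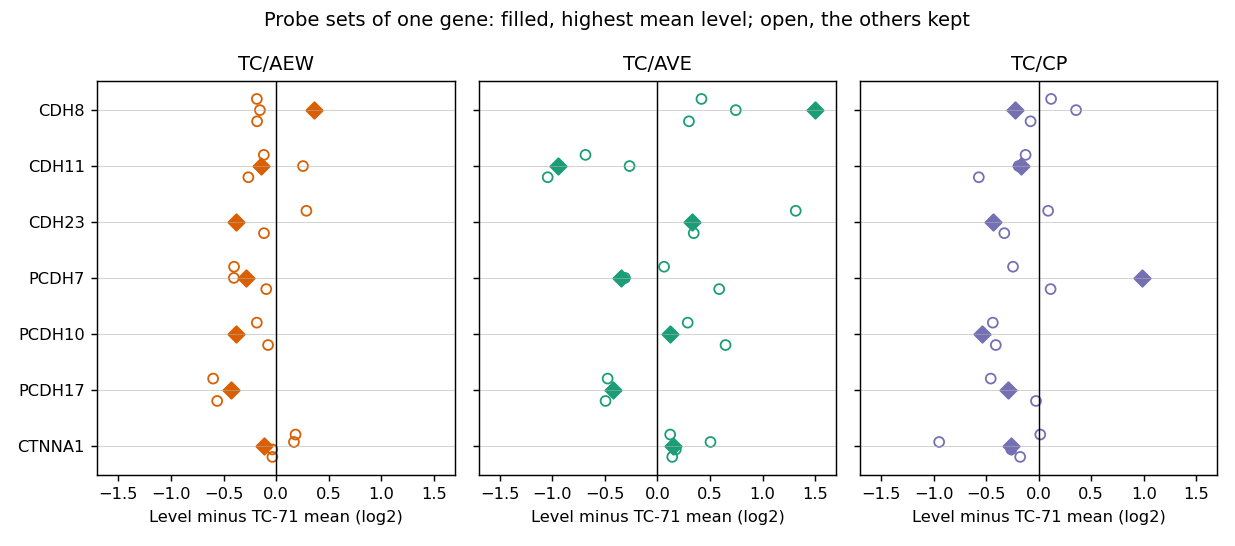
Level minus the TC-71 mean on the log2 scale for each kept probe set of 7 members in the 3 lines. Filled diamonds are the probe sets used in the text and open circles the others. In TC/AVE all 4 CDH8 probe sets lie above 0 and all 4 CDH11 probe sets below it, and in TC/CP the PCDH7 probe sets run from -0.24 to 0.98.

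Partners of the cadherins were read from 7 lists of 94 genes, of which 74 were tested. Limma called 0 of them against TC-71 in TC/AEW, TC/AVE, TC/CP or the lines in common, with 5, 4, 3 and 9 at an unadjusted p under 0.05, beside 3.53%, 7.23%, 4.95% and 8.38% of all genes. Among catenins and junction linkers, CTNNB1 (beta-catenin) stood at 9.80, 10.46 and 9.98 in TC-71 and at 10.35, 10.56 and 10.13 in the lines. JUP (plakoglobin), which can take the place of beta-catenin on cadherin tails, stood at 8.56, 7.92 and 8.02 in TC-71 and at 7.67, 6.82 and 7.78 in the lines, below TC-71 in each. The difference in TC/AVE was -1.35 ± 0.32 (2.55-fold lower, adjusted p = 0.519). TJP1 (ZO-1), a scaffold of tight junctions, stood at 7.65, 8.17 and 8.46 in TC-71 and at 7.45, 7.04 and 7.12 in the lines, and had the lowest adjusted p of the 74 genes (0.368 in the lines in common, -0.89 ± 0.23). NECTIN3, a junction protein, differed by 0.50 in TC/CP.

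Of the 8 protocadherin partners tested, 7 were higher in TC/AVE, with a median difference of 0.36 (-0.02 over all genes). Of the 12 turnover genes tested, 9 were higher there, with a median of 0.13. In TC/AEW the desmosomal plaque genes DSP and PKP2 stood at 7.09 and 6.95 against 5.68 ± 0.59 and 5.54 ± 0.61 (SD, n = 3) in TC-71, differences of 1.42 ± 0.48 and 1.41 ± 0.49 from levels near background. PKP2 also differed by 1.16 in TC/AVE and DSP by 0.79 in TC/CP, while PKP1 differed by -0.58 in TC/AEW. ZEB1, a repressor of E-cadherin, stood at 6.78 in TC/AEW against 5.47 ± 0.29, a difference of 1.31 ± 0.29 from a level near background. ZEB2 differed by 0.99 in TC/CP and TWIST1 by -0.95 in TC/AVE. CELSR2, a seven-pass cadherin of planar polarity, stood at 9.06 in TC/CP against 7.85 ± 0.22 (1.21 ± 0.26, adjusted p = 0.527). DCHS1 differed by 0.99 in TC/AEW and FAT4, its binding partner, by -0.87 in TC/AVE. CYFIP2, of the WAVE complex that some delta protocadherins recruit, was 1.03 higher in TC/AEW, and DAB1 and NCKAP1 of that list differed by at most 0.47. In the lists of cadherin cleavage (ADAM17, ADAM15 and MMP2) and of cadherin turnover (NUMB, CBLL1 and PTPN1) no difference exceeded 0.63 in size. None of them was called.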

How the data were processed

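The authors deposited log2 expression values, 1 per probe set and array, which the submitters' processing notes tie to RMA and the affy package. Their versions were not given in the sources used here. The 62 control probe sets were left out. Symbols came from GEO's platform annotation, and 41037 of 41091 single-symbol probe sets were found by gene identifier in RefSeq for GRCh38.p14. Probe sets that reached 5 on fewer than 2 of the 9 arrays were dropped. Each gene's brightest kept probe set stood for it, which gave 14181 genes in 6 samples.

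The tests, two-sided, came from limma 3.58.1 in R 4.3.3. The p-values were adjusted by Benjamini-Hochberg over all 14181 genes, with a threshold of 0.05. A fit with 4 groups (2 residual degrees of freedom) served the lines singly and against each other, and a fit with 2 groups (4 residual) the lines in common. The fits were tested on simulated data. The design text calls the TC-71 samples biological replicates without naming separate cultures. A p-value from the fit with 4 groups covers only the spread between those samples. One from the fit with 2 groups also rests on the spread between the resistant lines. The number of arrays limits the precision. Alternatives covered the filter, the probe set, the array set, the scaling, the moderation and each sample left out.

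Members at least 2-fold from TC-71 with both arrays beyond it, and CDH1, CDH2, CDH11 and the catenins, were given with every array or sample. PCDH7, PCDH10, PCDH17 and CDH23 were added after their values were seen. From each partner list the 3 genes with the largest differences were named, plus CTNNB1 and JUP. The members and lists were chosen with earlier results of these data known.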

Additional observations from a re-analysis of the deposited data

How the results depend on the processing

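No member was called in any comparison by limma under the alternatives tried, with 1 exception. That exception took the 9 arrays as samples, where technical arrays stand as independent ones. Limma then called 5 members in TC/AVE, 4 in TC/CP, 1 between TC/AEW and the antibody-selected lines and 10 in TC/AVE against TC/CP. These counts, each of 22, stood beside 1868, 1015, 291 and 1906 of all 14181 genes. Outside that setting, the lowest adjusted p of a member named by the rule was 0.145 against TC-71. The count of members at least 2-fold apart in TC/CP was 1 with no _x_at or _s_at probe sets, where CDH10 has no probe set left. In TC/AVE it was 3 in that setting. It was also 3 there with the mean of all kept probe sets, where CDH8 differed by 0.74. With _x_at probe sets used only for genes without another it was 5 in TC/AVE. With each array centred on its median it was 3 in TC/CP. Without each TC-71 sample in turn, members at least 2-fold apart numbered 4 to 5 in TC/AVE, 2 to 3 in TC/CP and 0 in TC/AEW.

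Some differences turned sign, none of them called. With no _x_at or _s_at probe sets, the turned differences were 0.26 for CDH11 in TC/AEW and 0.18, 0.015 and 0.11 for CTNNA1 in TC/AEW, TC/CP and the lines in common. With the mean of all kept probe sets they were -0.039 and 0.043 for CDH8 in TC/AEW and TC/CP and 0.032 for CTNNA1 in TC/AEW. Leaving out TC-71 samples in turn gave -0.15 to 0.40 for PCDH8 in TC/AEW, -0.059 to 0.83 and -0.65 to 0.24 for CDH8 in TC/AEW and TC/CP, -0.26 to 0.051 for CDH2 in TC/AVE, and -0.42 to 0.14 and -0.13 to 0.00041 for CDH10 and CTNNA1 in the lines in common. In the lines in common, leaving out TC/AEW gave 0.045 for CDH10, leaving out TC/AVE gave -0.35 for CDH3, and leaving out TC/CP gave 0.27 for CDH10 and 0.012 for CTNNA1. The array set as a block gave -0.059 for CDH8. The cause of these turns was not tested. The scaling alternative shifted no member's difference by more than 0.092. Over all genes it called 29 in TC/AVE, 1 in TC/AVE against TC/CP and 8 in the lines in common, against 0, 0 and 3. The 9 arrays as samples called 547, 1868 and 1015 genes in the lines singly, 238 in common, 291 between TC/AEW and the antibody-selected lines and 1906 in TC/AVE against TC/CP. Other settings called 0 to 7 genes in common and 0 to 6 in TC/AVE.

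No paired analysis was possible because replicate numbers of a resistant line mark technical arrays of 1 sample and match no TC-71 sample. The array set, which does join samples, was used as a block instead, and called 0 members and 0 genes in the lines in common.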

Other observations

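PCDH20, a further protocadherin without a clustered locus, has only probe sets shared with LINC02339 and so is not counted among the members. The brighter of them stood at 5.55, 6.43 and 6.32 in the TC-71 samples and at 5.97, 6.68 and 6.28 in the lines. TC/AEW and TC/CP overlapped TC-71, and the 2 TC/AVE arrays, at 6.78 and 6.58, lay just above its highest sample.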
